A study of Mus musculus with 3 samples.

Results

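Stellate cell and matrix genes were read in mouse liver after Cre virus or control virus, as 10 genes of 18193 with a named probe set: the collagen chains Col1a1, Col1a2, Col3a1 and Col4a1, the matrix proteoglycans Lum and Dcn, the cytoskeletal genes Acta2 and Des, the protease inhibitor Timp1 and the growth factor Tgfb1. A gene's members were the probe sets annotated with its symbol alone, and the one with the highest mean over the 3 arrays stood for the gene. The Cre virus group was 1 mouse given MUP-iCre-AAV8, an adeno-associated virus of serotype 8 carrying the iCre recombinase, and labelled HNF4alpha knockout. The control virus group was 2 mice given MUP-EGFP-AAV8, which carries a fluorescent protein, and labelled wild type, although the series design describes floxed HNF4alpha animals for both viruses, so any difference in genotype before injection cannot be told apart from that of the virus. All mice were 3 months old, of mixed strain, and had received 400 microL of virus intraperitoneally 1 week before the liver was taken. The cell type in which the MUP element is active is not stated in the labels, and the Cre virus values of every gene come from 1 animal.

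Hepatic stellate cells lie between hepatocytes and the sinusoidal endothelium, store vitamin A and carry desmin. In injured liver they can turn into myofibroblasts that contain smooth muscle actin and deposit fibrillar collagen, a change for which TGF-beta is the best known signal. HNF4alpha, in contrast, is a nuclear receptor of hepatocytes, so these genes belong largely to cells other than those that express the targeted gene.

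All values are log2 expression, and differences are Cre virus minus the mean of the control virus livers, with limma's moderated standard error (SE). The test was limma with Benjamini-Hochberg adjustment over 12735 genes, and only genes with an adjusted p under 0.05 are said to have risen or fallen. Genes whose mean over the 3 arrays lay under 3.77, the 30th percentile of all genes, were not fitted. Median expression per array was 4.16 for Cre virus, and 4.18 and 4.15 for control virus. The upper quartile was 6.28 for Cre virus, and 6.14 and 6.18 for control virus. The 4 probe sets of Hnf4a were each lower in the Cre virus liver than in both control virus livers. The brightest was at 11.38, against 11.91 and 11.96, the smallest difference of the 4 (-0.55). The largest was that of 1421983_s_at, at 6.52 against 7.69 and 7.72 (-1.18). Probe positions were not analysed here, and sets that read sequence beyond the floxed stretch say nothing of the deletion. The gap between the 3-prime and 5-prime control probe sets, which widens with RNA breakdown, was 2.39 log2 units for Actb in the Cre virus liver, against 1.71 and 2.06 in control virus livers. For Gapdh it was 1.04, against 0.45 and 0.82. This gap was widest in the Cre virus liver for both genes, but the controls also differed from each other. With 1 Cre virus array the gap cannot be tied to the group, and its part in the differences given here was not tested.

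Of the 10 genes, 9 passed the filter, 1 rose and 0 fell by limma. Lum, which encodes lumican, was the gene that rose, 1.69-fold. Over all fitted genes 6.71% rose and 5.21% fell, so 1 of 9 is a share near that background. Without adjustment 3 of the 9 had a limma p under 0.05, all higher, where 20.4% of all genes did so in that direction. By position alone, 7 of the 9 lay above both control virus livers and 0 below both, against 49.7% and 33.6% of all fitted genes. The median difference of the 9 was 0.35, beside 0.09 for all fitted genes. None of the 10 genes lay 1 log2 unit or more from both controls, a distance that 3.67% of fitted genes reached upward and 3.72% downward.

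**Figure D1:**
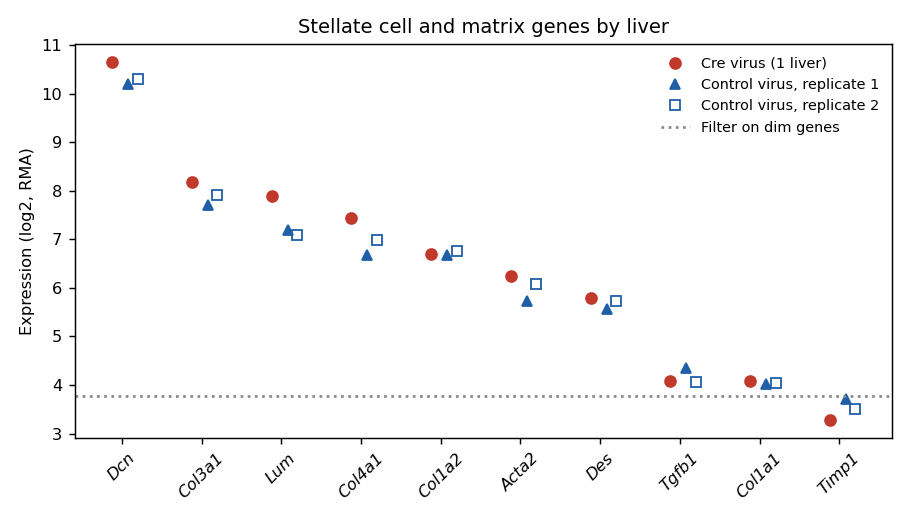
Expression of the 10 genes (log2, RMA) in the Cre virus liver (red circles) and the control virus livers (blue triangles, replicate 1, and open squares, replicate 2), with genes in order of their mean and the filter value of 3.77 as a dotted line. The red point lies farthest above the nearer blue point for Lum (0.70), then Col4a1 (0.44), Dcn (0.36) and Col3a1 (0.26), and Timp1 lies below the dotted line in all 3 livers.

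Promoter sequences are shown for 4 genes as description only, and no link between sequence and expression was tested. Col3a1 and Col1a2 are fibrillar collagen genes. On their brightest probe sets the first lay above both controls and the second between them. Acta2 is the usual mark of stellate cell activation, and Timp1 lay below both controls. Col3a1, Col1a2 and Acta2 did not pass the test, and Timp1 was not fitted. Each line gives the 250 bases before the start of the gene from RefSeq (GRCm38.p6), 5′ to 3′ on the gene's own strand, with motif matches in capitals.
Col3a1 (chr1:45311288-45311537, plus strand): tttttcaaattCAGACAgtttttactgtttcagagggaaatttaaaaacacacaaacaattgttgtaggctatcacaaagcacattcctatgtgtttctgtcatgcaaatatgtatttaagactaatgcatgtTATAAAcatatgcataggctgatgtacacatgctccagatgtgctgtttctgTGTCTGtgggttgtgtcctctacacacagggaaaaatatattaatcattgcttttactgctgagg
Col1a2 (chr6:4505368-4505617, plus strand): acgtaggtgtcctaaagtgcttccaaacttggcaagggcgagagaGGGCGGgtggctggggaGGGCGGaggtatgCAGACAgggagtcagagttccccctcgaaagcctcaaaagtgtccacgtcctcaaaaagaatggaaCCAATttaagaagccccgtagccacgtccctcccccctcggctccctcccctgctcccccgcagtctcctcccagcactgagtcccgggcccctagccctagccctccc
Acta2 (chr19:34255374-34255623, minus strand): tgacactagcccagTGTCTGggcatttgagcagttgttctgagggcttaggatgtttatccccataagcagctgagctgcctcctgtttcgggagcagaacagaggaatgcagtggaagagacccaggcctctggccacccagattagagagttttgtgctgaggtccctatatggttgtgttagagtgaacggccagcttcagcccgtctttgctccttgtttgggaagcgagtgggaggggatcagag
Timp1 (chrX:20869916-20870165, plus strand): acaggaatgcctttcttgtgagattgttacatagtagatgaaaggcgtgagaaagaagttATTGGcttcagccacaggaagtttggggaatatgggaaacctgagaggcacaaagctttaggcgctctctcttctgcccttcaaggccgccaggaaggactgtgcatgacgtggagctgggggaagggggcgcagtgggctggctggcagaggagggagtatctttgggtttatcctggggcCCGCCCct
The search covered 300 bases, including 50 after the start, on both strands, for TATAAA (the TATA box), CCAAT (the CCAAT box), GGGCGG (the GC box), TGANTCA (the AP-1 site), CAGACA (the sequence bound by SMAD3 and SMAD4) and the CArG box of serum response factor, in its strict form with only A or T in the core. CArG-like elements with a G or C in the core were not searched for. Entries were found for 7 of the 10 genes, and no matches overlapped. CAGACA was found 2 times in Col3a1 and 1 time each in Col1a2, Acta2 and Des, and 21.0% of 32851 mouse promoters hold it. GGGCGG was found 6 times in Tgfb1, 2 times in Col1a2, 2 times in Des and 1 time each in Timp1 and Col4a1, and it stands in 35.7% of promoters. CCAAT was found 2 times in Col1a2 and 1 time in Timp1 and in Col4a1 (37.4% of promoters). TATAAA stood in Col3a1 alone of the 7 (13.6% of promoters). Matches were counted wherever they stood in the window, so that in Col3a1 need not be a working TATA box. TGANTCA (7.81%) and the CArG box (1.63%) had 0 matches in these windows, which says only that these exact letters are not there.

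Lum and Dcn encode small leucine-rich proteoglycans that bind collagen and govern the width and spacing of its fibrils. The genes are neighbours in the RefSeq table. Lum was at 7.90 in the Cre virus liver, against 7.19 and 7.08 in the control virus livers. The single Cre virus value lay above both controls, as it did for 49.7% of all fitted genes. It was 0.70 above the nearer control, where the controls were 0.11 apart. The difference was 0.76 ± 0.14 SE (adjusted p = 0.0481 by limma, 95% interval 0.36 to 1.15), which was above that of 91.3% of fitted genes. Over 9 other settings the adjusted p of Lum by limma ranged from 0.0327 to 0.0756. Lum missed the threshold without an intensity trend (0.0631), without a filter (0.0756) and without probe sets of suffix _s_at, _x_at or _a_at (0.0603). Dcn was at 10.65 in the Cre virus liver, against 10.19 and 10.29 in the control virus livers, again above both. Its difference of 0.41 ± 0.11 SE was 1.33-fold and did not pass (adjusted p = 0.0974 by limma), although its 95% interval of 0.10 to 0.73 lay above 0. A second, much dimmer Dcn probe set, 1441506_at, was at 4.11, against 3.80 and 3.87 (difference 0.27 ± 0.18 SE), and so lay above both controls too.

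Of the fibrillar collagen genes Col1a1, Col1a2 and Col3a1 none passed the test, and differences between them were not tested. Col3a1, the chain of type III collagen, was at 8.17 in the Cre virus liver, against 7.72 and 7.92 in the control virus livers. It lay above both, by 0.26 over the nearer, but its difference of 0.36 ± 0.16 SE did not pass (adjusted p = 0.21 by limma, 95% interval -0.07 to 0.78). The dimmer Col3a1 probe set 1427884_at, below the filter value, was at 3.68, against 3.34 and 3.43. Col1a2, a chain of type I collagen, was at 6.71 in the Cre virus liver, between the control virus livers at 6.68 and 6.77. Its difference was -0.02 ± 0.15 SE with a 95% interval of -0.42 to 0.39, so these arrays cannot exclude a change within that range in either direction.

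The other probe sets of Col1a2 read differently. Probe set 1423110_at was at 4.49 in the Cre virus liver, against 3.82 and 3.70 in the control virus livers, a difference of 0.73 ± 0.18 SE that did not pass over all probe sets (adjusted p = 0.102 by limma over 25660 probe sets). Probe set 1446326_at, dim on every array, was at 1.89, against 2.15 and 2.33. The brightest set carries the suffix _a_at, and the 3 sets thus gave values near zero, above both controls and below both controls. Col1a1, the partner chain of type I collagen, was at 4.09 in the Cre virus liver, against 4.01 and 4.03 in the control virus livers. These values lie close to the filter value, where the method compresses differences, and the difference was 0.07 ± 0.18 SE (adjusted p = 0.816 by limma). Its second probe set, 1423669_at, was at 3.80, against 3.86 and 3.92, and lay below both controls.

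Col4a1 encodes a chain of type IV collagen, the network collagen of basement membranes, which sinusoidal endothelial and stellate cells make in liver. It was at 7.44 in the Cre virus liver, against 6.67 and 6.99 in the control virus livers. The Cre virus liver lay above both, though the controls were themselves 0.32 apart. The 1.52-fold difference of 0.60 ± 0.19 SE did not pass (adjusted p = 0.129 by limma, 95% interval 0.07 to 1.13). Its other probe set, 1426348_at, was at 5.94, against 6.01 and 6.18, and so below both controls (-0.16 ± 0.17 SE), and the mean of both sets gave 0.22. Col4a2, the partner chain, starts 21 bases from Col4a1 on the opposite strand in the RefSeq promoter table. It was at 6.70 in the Cre virus liver, against 6.39 and 6.47 in the control virus livers (0.26 ± 0.15 SE, adjusted p = 0.307 by limma), above both controls without passing.

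**Figure D2:**
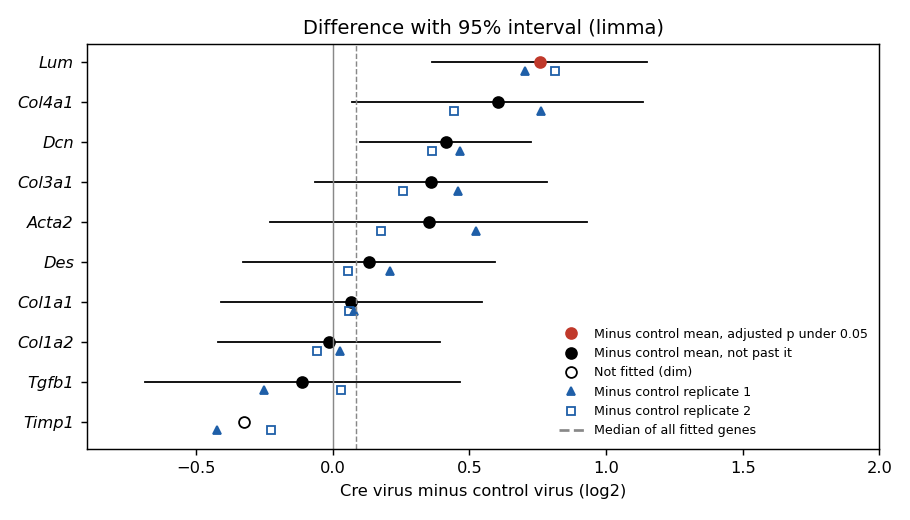
Difference between the Cre virus liver and the control virus mean (circles, log2) with limma's 95% interval (lines) for the fitted genes, and against each control (blue triangle, replicate 1, and open square, replicate 2), with the median of all fitted genes (0.09) dashed. Lum (0.76, red) passed the test, the intervals of Col4a1 and Dcn also lay above 0, and Timp1 (open) was not fitted.

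The cytoskeletal genes lay slightly above both controls. Acta2 encodes the smooth muscle actin of vascular muscle and myofibroblasts, and was at 6.25 in the Cre virus liver, against 5.72 and 6.07 in the control virus livers. The controls were 0.35 apart, as far as the difference itself, 0.35 ± 0.21 SE (adjusted p = 0.332 by limma, 95% interval -0.23 to 0.93). Its probe set has the suffix _s_at and may read related actin transcripts. The other Acta2 sets stayed under the filter value, at 2.75 against 2.66 and 2.66, and at 2.11 against 2.51 and 2.23. Des, the muscle-type intermediate filament desmin that marks rodent stellate cells, was at 5.78 in the Cre virus liver, against 5.57 and 5.73 in the control virus livers. Its difference of 0.13 ± 0.17 SE did not pass (adjusted p = 0.635 by limma). A dimmer Des set, 1426732_at, was at 3.28, against 3.56 and 3.35, and pointed the other way.

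Timp1 encodes a secreted inhibitor of matrix metalloproteinases and is often high in fibrotic liver. It was at 3.28 in the Cre virus liver, against 3.71 and 3.51 in the control virus livers, below the filter value on every array. It lay under both controls by 0.23 or more, and fitted without a filter its difference of -0.33 did not pass (adjusted p = 0.369 by limma). Tgfb1, the ligand that drives collagen synthesis in stellate cells and is stored in a latent complex, was at 4.09 in the Cre virus liver, between the control virus livers at 4.35 and 4.06. The difference was -0.11 ± 0.21 SE (adjusted p = 0.753 by limma), and the 95% interval of -0.69 to 0.46 leaves room for changes in either direction. Its other probe set, 1420653_at, was at 4.09, against 3.99 and 4.07, with a difference of 0.06 ± 0.18 SE.

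The 10 genes were read by 20 probe sets, of which 14 reached the filter value and 0 passed when probe sets were tested singly by limma. Of those 14, 4 had an unadjusted p under 0.05, namely the brightest sets of Lum, Dcn and Col4a1 and the middle set of Col1a2. In 6 of the 8 genes with several sets, the sets differed in sign. At this level Lum had an adjusted p of 0.0688 by limma.

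**Figure D3:**
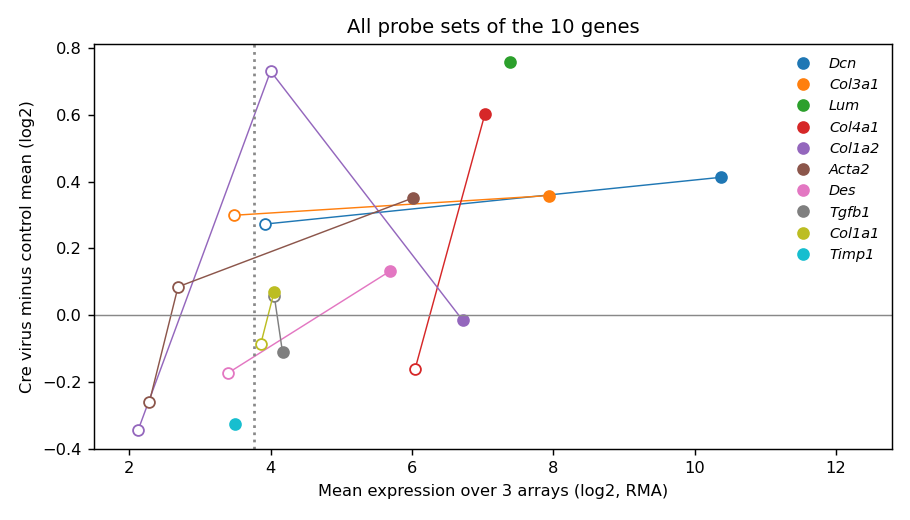
Difference between the Cre virus liver and the control virus mean (log2) against the mean expression over 3 arrays (log2) for all 20 probe sets, with sets of the same gene joined. Filled circles mark the set used for the gene, and the dotted line marks the filter value of 3.77. Col1a1, Col1a2, Col4a1 and Tgfb1 have sets on both sides of 0 that reach the filter value.

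Genes that work beside these members were read in 8 related lists, of which 122 genes were fitted. Of these 9 rose and 6 fell, or 7.38% and 4.92%, near the shares of all genes. Of these 15 genes, 7 (Col27a1, Tgm2, Vtn, Mmp14, Id1, Pdgfc and Mylk) also passed limma at 0.05 in each other setting that fitted them, while 8 (Col5a3, Col18a1, Crtap, Nid2, Adamts1, Ednrb, Actn1 and Tpm2) missed it in at least 1, such as without a filter. Of 16 other collagen genes 0 rose and 3 fell by limma, and 11 lay below both controls and 2 above both. Over all fitted genes 6.71% rose and 5.21% fell, and 33.6% lay below both controls and 49.7% above both. Col27a1, a fibrillar collagen chain, was at 6.36 in the Cre virus liver, against 7.90 and 8.02 in the control virus livers (-1.60 ± 0.14 SE, adjusted p = 0.0106 by limma). Col5a3, a chain of type V collagen, was at 3.82, against 5.83 and 5.22 (-1.70 ± 0.31 SE, adjusted p = 0.0434 by limma), and the mean of its probe sets gave -0.87 without passing. Col18a1, the parent of endostatin and a collagen that hepatocytes make, was at 10.18, against 10.89 and 10.77 (-0.65 ± 0.11 SE, adjusted p = 0.0417 by limma). The Cre virus value of Col5a3 stands just above the filter value, so the size of its fall is uncertain. The median of these 16 genes was -0.15. The collagen chains among the members were at -0.02 to 0.60 on their brightest probe sets, and none of them passed. Their other sets past the filter value were at -0.16 (Col4a1), -0.09 (Col1a1) and 0.73 (Col1a2). Col5a2, the neighbour of Col3a1, was at 5.75, against 5.86 and 5.07, and lay between the controls.

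In collagen folding, processing and crosslinking 2 of 14 genes rose and 0 fell. Tgm2, the tissue transglutaminase that crosslinks matrix and other proteins and is made by many cells, was at 11.83 in the Cre virus liver, against 9.70 and 9.56 in the control virus livers. That was 4.60-fold (2.20 ± 0.12 SE, adjusted p = 0.00303 by limma). Crtap, part of the complex that hydroxylates collagen prolines, was at 6.97, against 6.09 and 5.98 (0.93 ± 0.16 SE, adjusted p = 0.0373 by limma). Serpinh1, the collagen chaperone HSP47, was at 6.002, against 5.39 and 5.57, above both controls without passing (adjusted p = 0.135 by limma). P4hb, a subunit of prolyl hydroxylase and a general disulfide isomerase, was at 11.88, against 12.32 and 12.26, below both without passing (adjusted p = 0.0691 by limma). Lox, the lysyl oxidase, was under the filter value in all 3 livers.

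Of 31 matrix glycoprotein and proteoglycan genes 1 rose and 1 fell. Nid2, a basement membrane linker, was at 5.04 in the Cre virus liver, against 3.83 and 3.91 in the control virus livers (1.16 ± 0.18 SE, adjusted p = 0.0303 by limma). Its control values stand just above the filter value, so the size of that rise is uncertain. Vtn, vitronectin, a plasma protein secreted by hepatocytes, was at 11.40, against 12.95 and 12.98 (-1.56 ± 0.09 SE, adjusted p = 0.00331 by limma). Postn, a matrix protein of fibroblasts, was at 6.87, against 5.94 and 6.19, above both without passing (adjusted p = 0.0669 by limma). Fn1, fibronectin, was at 12.17, between the control values of 12.31 and 12.13. Among relatives of Lum and Dcn, Bgn was at 9.10, against 8.87 and 8.96, and Prelp at 6.73, against 6.77 and 7.08, and neither passed.

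Of 12 protease and inhibitor genes 2 rose and 0 fell. Mmp14, a membrane-bound collagenase that activates other matrix metalloproteinases, was at 7.79 in the Cre virus liver, against 6.66 and 6.495 in the control virus livers (1.22 ± 0.16 SE, adjusted p = 0.0217 by limma), and the mean of its probe sets gave 0.78. Adamts1, a protease that cuts proteoglycans, was at 6.515, against 5.71 and 5.58 (0.87 ± 0.16 SE, adjusted p = 0.0463 by limma). Timp2, a relative of Timp1, was at 7.09, against 6.80 and 6.73, above both without passing (adjusted p = 0.221 by limma).

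Of 14 fitted TGF-beta ligands, activators, receptors and SMADs 0 passed in either direction by limma. The largest differences were those of Smad3 and Itgav. Smad3, a signal transducer of the pathway, was at 6.56 in the Cre virus liver, against 7.83 and 7.06 in the control virus livers (-0.88 ± 0.35 SE, adjusted p = 0.184 by limma). Itgav, an integrin chain that releases latent TGF-beta, was at 9.37, against 8.51 and 8.75 (0.74 ± 0.16 SE, adjusted p = 0.062 by limma). The receptor Tgfbr1 was at 8.09, between control values of 8.06 and 8.16. Of 11 genes that respond to TGF-beta or damp it, 1 rose, Id1, at 8.03 against 5.37 and 5.98 (2.35 ± 0.30 SE, adjusted p = 0.0213 by limma). Id1 is better known as a target of BMP signalling. Ccn2, a classic TGF-beta target, was at 7.86, between 7.65 and 8.04, and Tgfbi was at 8.46, against 7.90 and 7.85, without passing (adjusted p = 0.0659 by limma).

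Of 11 mitogens, vasoactive ligands and receptors 2 rose and 0 fell. Pdgfc, a ligand that acts on PDGF receptors, was at 7.85 in the Cre virus liver, against 6.66 and 6.82 in the control virus livers (1.11 ± 0.16 SE, adjusted p = 0.026 by limma). Ednrb, an endothelin receptor, was at 6.76, against 5.73 and 5.91 (0.95 ± 0.17 SE, adjusted p = 0.0434 by limma), and the mean of its probe sets gave 0.45 without passing. The PDGF receptors Pdgfra, at 6.76 against 6.26 and 6.30, and Pdgfrb, at 6.60 against 6.21 and 6.41, lay above both controls without passing.

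Of 13 contractile and cytoskeletal genes 1 rose and 2 fell. Actn1, an actin crosslinker, was at 8.22 in the Cre virus liver, against 7.34 and 7.09 in the control virus livers (1.00 ± 0.17 SE, adjusted p = 0.0385 by limma), and the mean of its probe sets gave 0.53 without passing. Tpm2, a tropomyosin, was at 6.12, against 7.72 and 7.33 (-1.40 ± 0.22 SE, adjusted p = 0.0319 by limma). Mylk, the myosin light chain kinase, was at 7.30, against 8.87 and 8.53 (-1.40 ± 0.19 SE, adjusted p = 0.0247 by limma). Tagln, a smooth muscle protein that often accompanies Acta2, was at 6.06, against 5.32 and 5.95, without passing (adjusted p = 0.399 by limma).

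**Figure D4:**
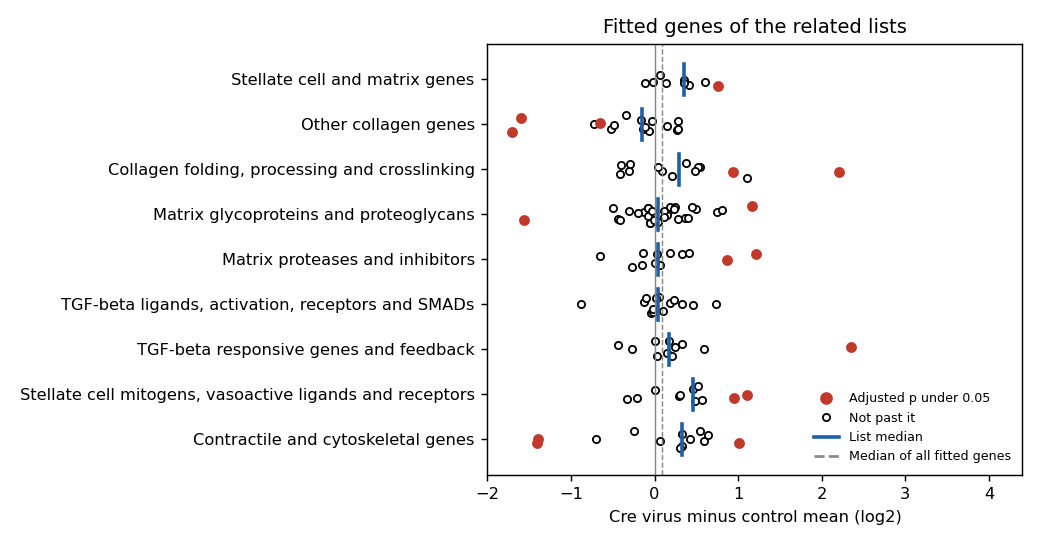
Difference between the Cre virus liver and the control virus mean (log2) for the fitted genes of the member list and of 8 related lists, with genes past an adjusted p of 0.05 in red, list medians as blue bars and the median of all fitted genes (0.09) dashed. The 3 red points among the other collagen genes lie left of 0, and Id1 (2.35) and Tgm2 (2.20) lie farthest to the right.

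Marker genes were read because bulk liver RNA mixes cell types, and more cells of a type cannot be told apart from more RNA per cell. Of 11 fitted stellate cell markers 0 passed by limma, 7 lay above both controls and 2 below both (against 49.7% and 33.6% of all fitted genes). Their summed linear signal was 1564 in the Cre virus liver, against 1347 and 1439 in control virus livers, and Lrat, the enzyme that esterifies retinol in these cells, was at 6.51, between 6.62 and 6.41. Reln, a secreted glycoprotein of stellate cells, was at 9.50, against 9.20 and 9.28, above both without passing (adjusted p = 0.235 by limma). None of the 11 stayed under the filter value on every array.

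Of 9 Kupffer cell and macrophage markers 8 lay above both controls (against 49.7% of all fitted genes) and 1 rose by limma, Marco, a scavenger receptor, at 6.58 against 4.74 and 4.67 (1.88 ± 0.16 SE, adjusted p = 0.0097), and the mean of its probe sets gave 0.77. Their summed signal was 2031 in the Cre virus liver, against 1051 and 1562 in control virus livers, and 0 of them stayed under the filter value throughout. Their median difference was 0.73. The summed signal of these markers was higher in the Cre virus liver, as was Lum, and its part in the difference of Lum was not tested. In 6 of the 7 members above both controls the nearer control was replicate 2. The exception was Lum, whose nearer control was replicate 1 (7.19, against 7.08 in replicate 2). Replicate 2 was also nearer in 6 of the 8 macrophage markers, 4 of the 7 stellate cell markers and 56.0% of all genes above both.

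Of 12 endothelial markers 0 passed by limma, 7 lay above both controls and 2 below both. Their summed signal was 2054 in the Cre virus liver, against 1875 and 2179 in control virus livers. In vascular smooth muscle, Myh11, Cnn1 and Actg2 were under the filter value in all livers, and the sum was 113, against 82.9 and 108. In portal fibroblast and mesothelial cells 0 of 4 fitted markers passed, Cd34, Msln, Wt1 and Gpm6a were under the filter value throughout, and the sum was 178, against 185 and 189. Of 3 fitted cholangiocyte markers 1 rose, Sox9, at 6.69 against 3.87 and 4.82 (2.35 ± 0.43 SE, adjusted p = 0.0452 by limma, from 0.0112 to 0.0799 over 8 other settings). Epcam, at 4.58 against 4.28 and 4.32, lay above both controls without passing (adjusted p = 0.338 by limma). Krt23 was at 4.18, against 4.85 and 4.76, without passing (adjusted p = 0.0957 by limma), and the duct keratin Krt7 was under the filter value throughout. The mean of the probe sets of Sox9 gave 1.29. Its value in control replicate 1 stands just above the filter value, so the size of that rise is uncertain. The summed signal of cholangiocyte markers was 167 in the Cre virus liver, against 86.2 and 97.9 in control virus livers, and without Sox9 it was 63.6, against 71.6 and 69.7. Of 4 fitted lymphocyte and neutrophil markers 0 passed, with a sum of 166, against 144 and 145, and Cd3g, Ms4a1, S100a8 and Nkg7 stayed under the filter value. Of 8 hepatocyte markers 3 fell, Asgr1 the farthest (-5.02 ± 0.12 SE, adjusted p = 0.00107 by limma), and their sum was 116656, against 122729 and 122799.

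**Figure D5:**
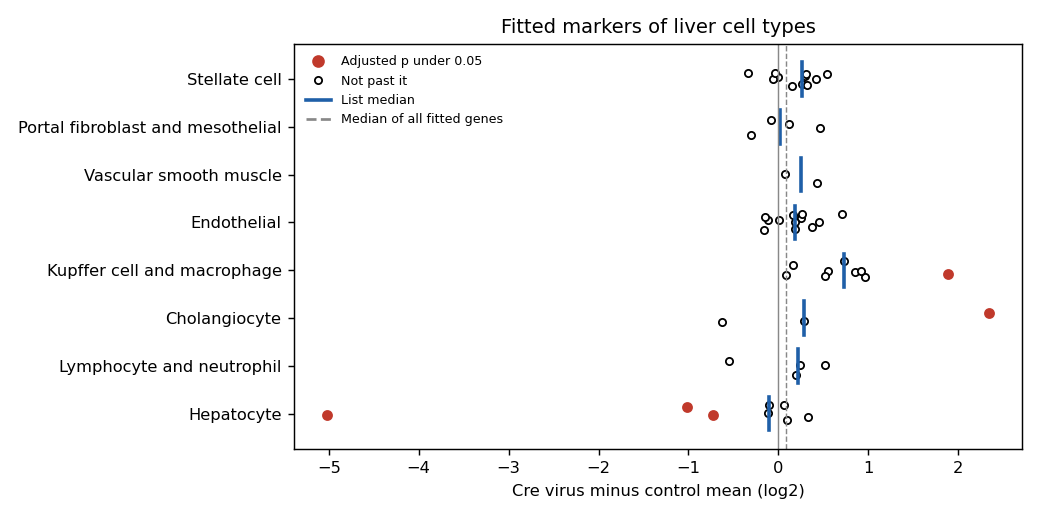
Difference between the Cre virus liver and the control virus mean (log2) for the fitted markers of 8 liver cell types, with markers past an adjusted p of 0.05 in red, list medians as blue bars and the median of all fitted genes (0.09) dashed. The macrophage median is at 0.73 and the stellate cell median at 0.26, and the red points are Marco, Sox9 and 3 hepatocyte genes.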

How the data were processed

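Liver RNA from 3 mice was hybridised to 1 single-colour array each. The values the authors deposited are log2 expression for 45101 probe sets, for which the submitters' processing notes name RMA and Partek 6.5; no source used here gives the log base, and base 2 was inferred from the range of the values. RMA draws the arrays' distributions together, which hides a shift common to all genes, and compresses differences near background. The distributions of the deposited values were close but not equal. No detection calls were used.

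Of the probe sets, 34945 listed 1 gene, 932 several and 9160 none, beside 64 array controls. Symbols were checked by Entrez ID against a mouse gene table (34741 matched). The brightest probe set stood for each of 18193 genes, and 12735 with a mean at or above 3.77 were fitted in limma 3.58.1 (R 4.3.3; lmFit, eBayes with an intensity trend). The controls left 1 residual degree of freedom, moderation added 3.18, and the spread of the single Cre virus array was taken to equal that of the controls. The labels call the controls biological replicates. Probe sets were also fitted singly (25660). The code was tested on simulated data with changes larger than any member difference. That test does not measure sensitivity at the sizes of the members.

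Members and lists were chosen with earlier results of these data known. All members were described; of each list, those past the test, up to 4 with the largest difference, and others to describe it. Linear sums are 2 to the power of the log2 values. Figures used matplotlib 3.10.9. Alternatives were other moderation, filters, scaling, probe set rules, thresholds and each control left out.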

Additional observations from a re-analysis of the deposited data

How the results depend on the processing

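No paired analysis was possible because the Cre virus group has 1 sample, so the groups share fewer than 2 replicate numbers. With 1 control left out no degrees of freedom remain, so these are values with no test, and counts of calls were not run. Lum was then at 0.70 to 0.81, Dcn at 0.36 to 0.46, Col4a1 at 0.44 to 0.76, Col3a1 at 0.26 to 0.46, Acta2 at 0.18 to 0.53, Des at 0.056 to 0.21, Col1a1 at 0.058 to 0.079 and Timp1 at -0.42 to -0.23. The sign turned for Tgfb1 (0.030 without replicate 1, -0.25 without replicate 2) and Col1a2 (-0.058 without replicate 1, 0.028 without replicate 2), each of which lay between the controls.

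The count of member genes that rose was 1 (Lum). It was 0 without an intensity trend, 0 without a filter and 0 without probe sets of suffix _s_at, _x_at or _a_at. The count was 2 at an adjusted p of 0.10 by limma and 0 at 0.01. With limma and no adjustment 3 members had a p under 0.05. The count that fell was 0 in each of these settings. Over all genes, 855 rose, and this count was 446 without a filter, 471 without sets of these suffixes, 1780 at 0.10 and 92 at 0.01. Over all genes 663 fell, and this count was 1007 after quantile normalization, 1003 at 0.10 and 255 at 0.01. In the related lists 9 rose, and 4 without a filter, 2 without sets of these suffixes, 16 at 0.10 and 1 at 0.01. In the same lists 6 fell, and 3 without a filter, 3 without sets of these suffixes and 1 at 0.01. The size rule's counts of 468 and 474 stayed within 1.5 times under its 4 alternatives. The cause of these changes was not tested beyond what the settings themselves alter.

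Under the other settings the direction turned for members that had not passed. Col1a1 turned to -0.0085 and Des to -0.020 as means of their probe sets. Col1a2 turned to 0.12 as a mean, and to 0.73 without _s_at, _x_at and _a_at sets. Median centring and quantile normalization turned the direction of no fitted member, and Lum was at 0.77 and 0.67 under them. Over all fitted genes the median difference was 0.09, and 0.02 after quantile normalization. As means of their probe sets Actn1 (0.53, adjusted p = 0.154 by limma), Ednrb (0.45, adjusted p = 0.103) and Col5a3 (-0.87, adjusted p = 0.0783) no longer passed. Values near 3.77 are close to background, which limits what can be said of Col1a1, Tgfb1 and Timp1.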
